A study of Mus musculus with 2 samples.

Results

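Mouse chromosome 11 carried 1352 of the 16249 regions that the authors listed from a chromatin immunoprecipitation (ChIP-seq) of SF1 in mouse uterus. The members are every region whose chromosome field reads 11, with no threshold on width or score. The chromosome was taken up because its density of regions was already known to be the highest of the 19 autosomes, so its number of regions, windows and spacing are given as description. The comparison is with the 14689 regions on the other 18 autosomes. The list came from 1 SF1 ChIP library of whole uterus, from C57BL6/6J mice that lost their ovaries at 6 weeks of age and whose tissue was taken at 8 weeks, after 2 weeks without ovarian hormones. The other library of the series, 1 input from the same kind of tissue without antibody, is not analysed here. Both libraries share the strain, the age and the ovariectomy, and no replicate is named. Neither the genotype at SF1 nor the number of animals behind the tissue is stated, which limits the data as a model of the uterus.

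SF1 (NR5A1) is an orphan nuclear receptor that binds DNA as a monomer and drives genes of steroid hormone synthesis in the adrenal cortex and the gonads. A ChIP-seq region is a stretch of genome where sequenced fragments pile up after pull-down with an antibody. It marks where the antibody's target, or chromatin that is easily recovered, was found, and it does not name the gene that is controlled. Chromosome 11 is known among mouse chromosomes for its many genes, and it carries the Hoxb genes of body patterning, the keratin genes Krt10 and Krt14, the collagen gene Col1a1, the chemokine gene Ccl2 and the signalling genes Stat3 and Stat5a.

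The name "gene-rich" held in the RefSeq gene table, which is on GRCm38.p6 and was used by chromosome name alone. It gave chromosome 11 1609 protein-coding genes. Per Mb of region span (from the first region's start to the last region's end) this was 13.6 protein-coding genes, against 8.39 on the other autosomes together, a ratio of 1.62. Chromosome 7 alone was as high, also at 13.6. Of 30 genes written down as known SF1 targets, 4 were placed on chromosome 11. These were Stard3, which moves cholesterol between membranes, Hsd17b1, which makes estradiol from estrone, Fdxr, which passes electrons to the mitochondrial steroid enzymes, and Sox9, a transcription factor of gonadal and glandular development. Chromosome 11 held 1609 of the 21900 protein-coding genes listed, and whether 4 of 30 exceeds that share was not tested. No mm9 annotation was used here, so whether a region lies at any of the 4 is not known. No region below is assigned to a gene.

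SF1 ChIP regions numbered 11.4 per Mb on chromosome 11 and 6.47 per Mb on the other autosomes, a ratio of 1.76 (95% interval 1.67 to 1.86, exact binomial). The interval treats regions as independent and covers counting error alone, and neighbouring regions are not independent. No test of the difference is given, because the chromosome was chosen by it and 1 library has no replicate. The next densest autosomes were chromosome 19 at 8.62, chromosome 7 at 7.98 and chromosome 9 at 7.95 regions per Mb. Regions covered 3.33% of the span of chromosome 11 and 1.68% elsewhere on autosomes, a ratio of 1.99. On other single autosomes the covered share ran from 1.09% on chromosome 3 to 2.31% on chromosome 19.

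Set against genes in place of length, chromosome 11 no longer stood first. It had 0.840 regions per protein-coding gene, and the other autosomes together 0.771, a ratio of 1.09 (1.03 to 1.15). Chromosome 11 ranked 7 of 19 by this measure. Single autosomes ran from 0.586 on chromosome 7 to 0.967 on chromosome 18. Of the autosomes most like it in density, chromosome 19 had 0.709 regions per protein-coding gene and chromosome 9 had 0.791. Chromosome 7 and chromosome 11 were level in protein-coding genes per Mb, but chromosome 11 held 11.4 regions per Mb and chromosome 7 held 7.98. Olfactory and vomeronasal receptor genes are large families of odour and pheromone sensing. Without them, chromosome 11 had 0.886 regions per gene and the others 0.831, and the rank of chromosome 11 stayed at 7. Chromosome 17 was then the lowest, at 0.700, in place of chromosome 7. Counting every gene of the table, non-coding ones and pseudogenes included, raised the ratio to 1.31 and put chromosome 11 first, at 0.438 regions per gene against at most 0.403 on chromosome 4. Of the genes listed on chromosome 11, 52.1% were protein-coding, and between 31.0% and 51.3% on the other autosomes.

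**Figure D1:**
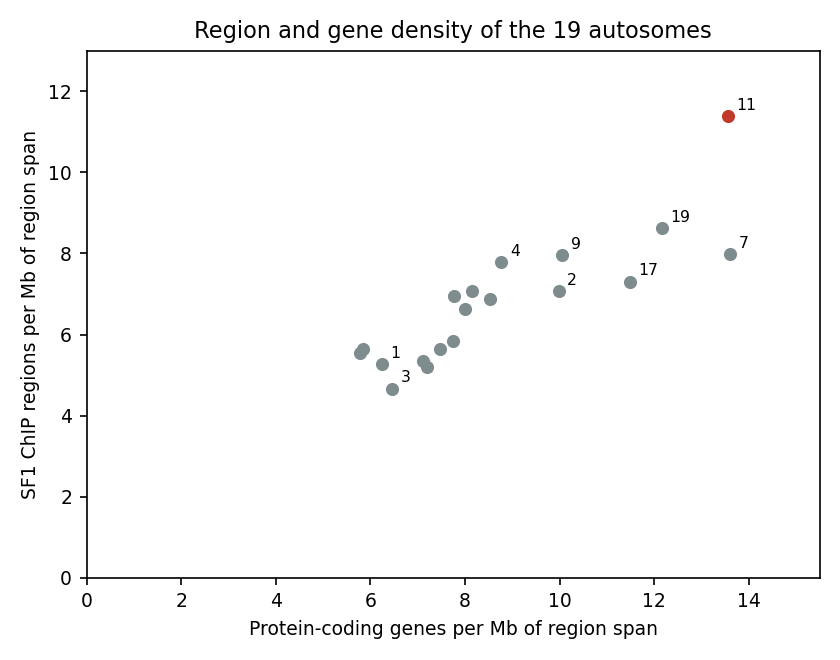
Regions per Mb of span (vertical axis) against protein-coding genes per Mb of the same span (horizontal axis) for the 19 autosomes, 1 point each, with chromosome 11 in red and the autosomes outside the dense cloud numbered. Chromosome 11 lies at 13.6 genes and 11.4 regions per Mb. Chromosome 7, at the same gene density with olfactory and vomeronasal receptor genes included, has 7.98 regions per Mb.

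Across the 19 autosomes, the order by regions per Mb followed the order by protein-coding genes per Mb, with a Spearman correlation of 0.926. Without chromosome 11 it was 0.917 over 18 autosomes. All points come from 1 library and share the span as divisor, so the value is a description. Gene numbers from GRCm38.p6 were divided by spans from mm9, so the densities of genes are approximate.

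Regions were unevenly laid along the chromosome. They ran from 3 Mb to the window that begins at 121 Mb, and 69.4% of them lay beyond the midpoint of the span. On the other autosomes the share beyond the midpoint ran from 25.8% on chromosome 16 to 78.0% on chromosome 15, with a median of 59.8%. When each span was cut into 20 equal parts, chromosome 11 exceeded the median of the other autosomes in 14 parts and exceeded every one of them in 5. Those 5 parts were the 10th, the 12th, the 13th, the 17th and the last, at 13.3, 16.02, 26.3, 23.6 and 26.3 regions per Mb. The second and the seventh part were among the emptiest, at 1.18 and 2.19 regions per Mb, and only 2 and 1 of the other autosomes were lower there.

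**Figure D2:**
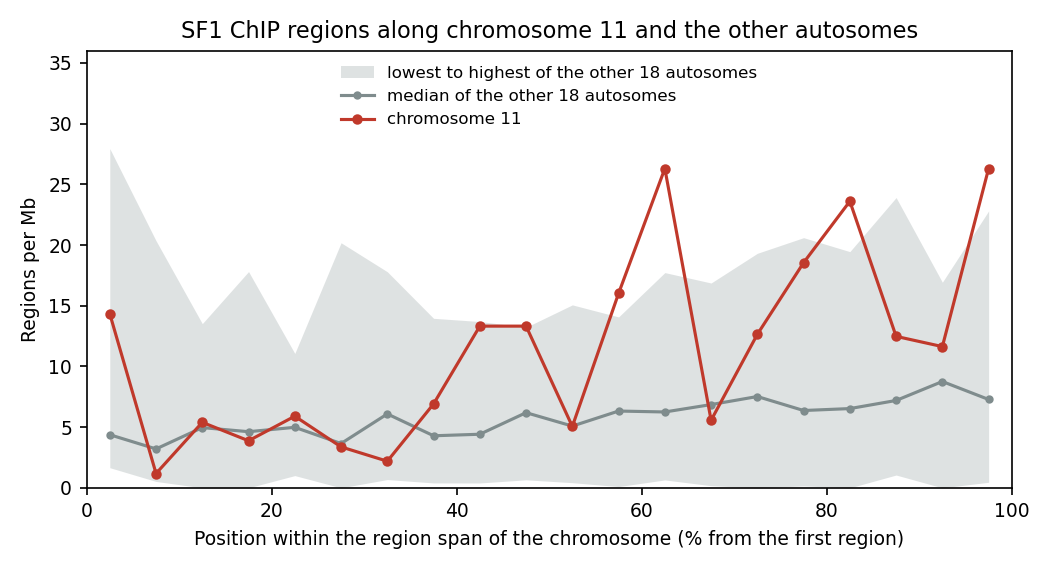
Regions per Mb (vertical axis) in 20 equal parts of each autosome's region span (horizontal axis, percent from the first region). The red line is chromosome 11, the grey line the median of the other 18 autosomes and the band their lowest to highest value; the red line leaves the band upward in 5 parts and peaks at 26.3 regions per Mb.

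Each region was placed by its midpoint in windows of 1 Mb, counted from position 0. Chromosome 11 had 119 windows, with a median of 9 regions, quartiles of 2 and 19, and 40 in the fullest. The other autosomes had 2287 windows, with a median of 4 and quartiles of 1 and 9.5. Fuller windows than any on chromosome 11 existed elsewhere, with up to 45 regions. The upper quartile of 19 was the highest of the 19 autosomes, where the others ran from 6 to 12.75.

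Windows with 20 or more regions are called dense. Chromosome 11 had 28 dense windows, 23.5% of its windows (16.2 to 32.2%). The share was 8.23% over all 2406 autosomal windows and 7.43% over the other autosomes. The highest share on another autosome was 12.5%, on chromosome 4, with 19 dense windows. Dense windows held 776 of the 1352 regions, 57.4% (54.7 to 60.1%), against 30.3% (29.5 to 31.0%) on the other autosomes and at most 44.1% on chromosome 8. A dense window itself was about as full on chromosome 11 as elsewhere, with means of 27.7 and 26.2 regions. Outside dense windows, chromosome 11 had 6.33 regions per window and the others 4.84, a ratio of 1.31 (1.20 to 1.42). Merging regions less than 1 kb apart left 20 dense windows on chromosome 11 and 128 on the others.

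Windows of 10 to 19 regions made up 24.4% of chromosome 11 and 17.6% of the others. Windows with 5 to 9 made up 14.3% and 20.3%, and windows with 1 to 4 made up 20.2% and 29.7%. No region fell in 21 windows of chromosome 11, 17.6% (11.3 to 25.7%), while the share elsewhere was 24.97% (23.2 to 26.8%). Those intervals overlap, and 2 other autosomes had a smaller empty share, down to 12.5% on chromosome 9. The share of windows in a class thus differed most in the fullest class.

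**Figure D3:**
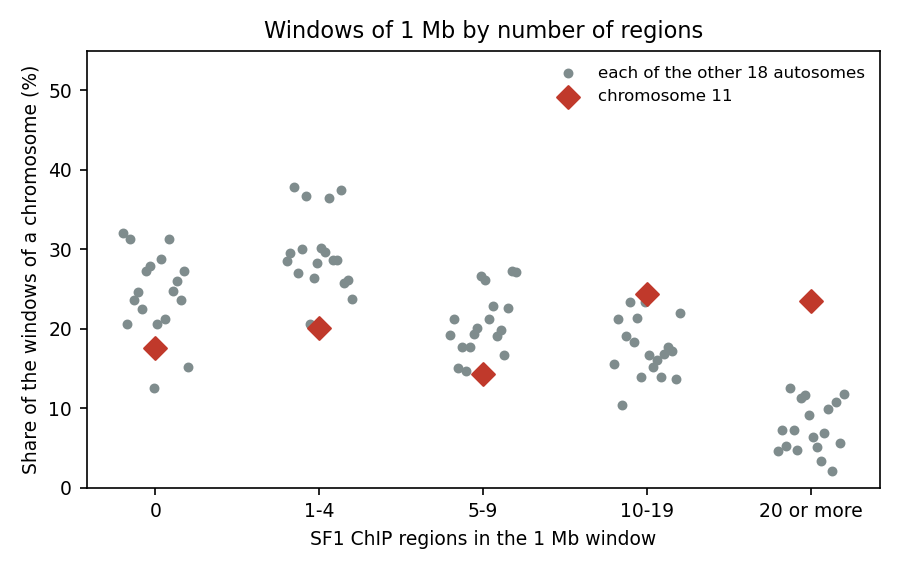
Share of a chromosome's 1 Mb windows (vertical axis, percent) by the number of regions in the window (horizontal axis). The red diamond is chromosome 11 and each grey point 1 of the other 18 autosomes; the diamond at 20 or more regions is at 23.5%, above the highest grey point at 12.5%.

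The fullest window, 69 to 70 Mb, held 40 regions that covered 12.9% of it, with a median width of 2687 bp and a median score of 19. The score is a whole number that the authors gave each region, without a name or unit, and it is used here to order and describe regions within this list. The window at 98 to 99 Mb followed with 39 regions. It had the highest covered share of the chromosome, 17.1%, and 4 regions wider than 10 kb. A pair of windows tied at 38 regions. The one at 116 to 117 Mb had a highest score of 30, the lowest maximum of any dense window on the chromosome, and 76.3% of its regions had a neighbour within 10 kb. The one at 120 to 121 Mb had a highest score of 54, and 50% of its regions had such a neighbour. At 36 regions came 3 windows, beginning at 59, 75 and 115 Mb, with covered shares of 11.1%, 12.7% and 12.9%. Among all autosomal windows, the window at 69 Mb ranked 7 and the one at 98 Mb ranked 9.

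The remaining dense windows held 20 to 30 regions. They began at 5, 50, 68, 70, 74, 76, 77, 78, 79, 87, 88, 94, 95, 96, 97, 100, 101, 102, 106, 117 and 118 Mb. Of all 28, 27 began at 50 Mb or beyond, on a chromosome whose windows began at 3 to 121 Mb. Covered shares ran from 4.98% at 79 Mb to 17.1% at 98 Mb, with a median of 8.62%. Median widths within a dense window ran from 2006 bp at 96 Mb to 3472 bp at 117 Mb, and median scores from 13.5 at 87 Mb to 21 at 118 Mb. The share of regions with a neighbour within 10 kb ran from 34.8% at 50 Mb to 80.95% at 118 Mb. Just inside the threshold were 3 windows with 20 regions, at 76, 87 and 96 Mb, and just outside it 3 with 19, at 3, 54 and 114 Mb.

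Of the 28 dense windows of chromosome 11, 23 stood beside another dense one, in 6 runs, and 5 stood alone, at 5, 50, 59, 106 and 120 Mb. Runs of adjacent dense windows reached 6 windows with 154 regions from 74 to 80 Mb, 5 windows with 143 regions from 94 to 99 Mb, and 4 windows with 118 regions from 115 to 119 Mb. Among the autosomes, a single run was longer, with 7 windows and 190 regions from 132 to 139 Mb of chromosome 4. The stretch from 94 to 103 Mb, the longest when dense windows 1 window apart are joined, had 234 regions in 9 windows, 8 of them dense. The missing one, 99 to 100 Mb, had 4 regions between neighbours of 39 and 29. The proximal stretch from 3 to 29 Mb had 147 regions in 26 windows, and 10 of those were empty. Counts of neighbouring windows had a Spearman correlation of 0.606 on chromosome 11, and between 0.298 and 0.685 on the other autosomes.

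Regions on chromosome 11 were wider than on the other autosomes together, and their median score was the same. Width does not enter the choice of the chromosome, but it comes from the same library and region calls. The median width was 2305 bp (95% interval 2230 to 2364, from order statistics), with quartiles of 1747 and 3249 bp and a range of 899 to 26210 bp. On the other autosomes the median was 2083 bp (2066 to 2100), a difference of 221.5 bp. Chromosome 11 had the highest median of the 19, followed by chromosome 7 at 2234 bp and chromosome 19 at 2218 bp. The intervals of both overlapped that of chromosome 11. So did those of chromosome 8 (2116 to 2284), chromosome 15 (2107 to 2315) and chromosome 17 (2065 to 2288). Regions under 1500 bp made up 11.5% of chromosome 11 (9.81 to 13.3%), the lowest share of any autosome, and 15.9% (15.3 to 16.5%) elsewhere. The shares of chromosome 4, 12.8%, and chromosome 19, 13.2%, lay inside the interval of chromosome 11. Across the 19 autosomes the median width rose with regions per Mb, with a Spearman correlation of 0.900, and 0.882 without chromosome 11.

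Fuller windows held wider regions, on chromosome 11 as elsewhere. In windows with 1 to 4 regions the median on chromosome 11 was 1546 bp (1451 to 1741, 63 regions), and in dense windows it was 2526 bp (2410 to 2594). On the other autosomes the same classes had medians of 1737 and 2471 bp. Within a class, chromosome 11 was not the widest. It ranked 8 of 19 in dense windows, where chromosome 10 led with 2742 bp, 3 of 19 in windows with 10 to 19 regions, and last in windows with 1 to 4. Outside dense windows the difference in median from the other autosomes fell to 65 bp, with 2019 bp (1918 to 2160) against 1954 bp (1938 to 1973).

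**Figure D4:**
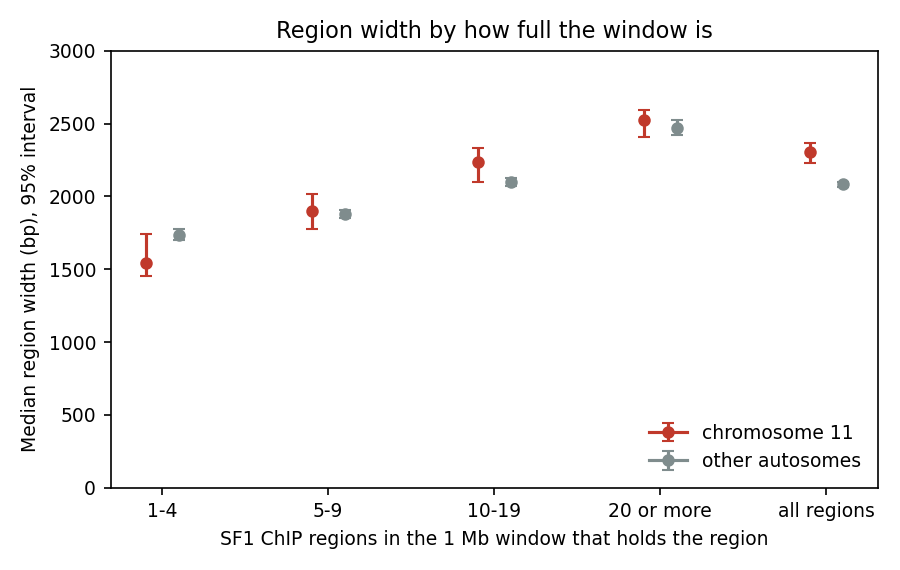
Median region width in bp (vertical axis) by the number of regions in the 1 Mb window that holds the region, and for all regions together (horizontal axis). Bars are 95% intervals from order statistics; chromosome 11 (red) lies above the other autosomes (grey) by 221.5 bp over all regions, and below them in windows with 1 to 4 regions.

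At a like score the regions of chromosome 11 were wider too. For scores of 8 to 12 the medians were 1832 bp (1742 to 1918) on chromosome 11 and 1647 bp (1622 to 1673) elsewhere. For scores of 17 to 22 they were 2528 bp (2334 to 2657) and 2206 bp (2168 to 2249), and for 23 to 49 they were 3042 bp (2865 to 3275) and 2753 bp (2695 to 2812). The intervals overlapped for scores of 13 to 16 and of 50 or more. In the latter class chromosome 11 had 29 regions with a median of 4364 bp (3173 to 6109). Score and width had a Spearman correlation of 0.456 on chromosome 11, and from 0.419 to 0.513 on the others.

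Broad regions were more frequent on chromosome 11. Of its regions, 23 were wider than 10 kb, 1.701% (1.08 to 2.54%), against 0.756% (0.622 to 0.909%) elsewhere. Chromosome 11 had the highest share, closely followed by chromosome 8 at 1.66%. Above 5 kb chromosome 8 came first, with 11.2%, and chromosome 11 second, with 10.6%. The 23 regions over 10 kb were 17.2% of the 134 such regions in the list, while chromosome 11 held 8.32% of all regions. They lay in dense windows in 21 of 23 cases, against 57.4% of all regions of chromosome 11. Their median score was 36, against 17 for all. A neighbour within 10 kb was found for 17 of the 23, against 48.96% of all. The widest was chr11:78906101-78932311, with 26210 bp, a score of 35 and the nearest region 156 bp away. The next widest was chr11:98632304-98651411, with 19107 bp and a score of 36. Then came chr11:87964461-87981748, with 17287 bp and a score of 36, and chr11:53871186-53888163, with 16977 bp and a score of 55. The fifth was chr11:98793662-98808301, with 14639 bp, a score of 51 and the nearest region 33 bp away. All but the fourth had another region less than 200 bp away.

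Scores on chromosome 11 were close to those elsewhere. The median was 17 (16 to 18) with quartiles of 14 and 23, against 17 with quartiles of 13 and 22 on the other autosomes. Mean scores were 19.9 ± 9.92 (SD over regions, n = 1352) and 19.5 ± 9.78 (n = 14689), and single autosomes ran from 18.4 to 20.5. A score of 50 or more belonged to 2.14% of the regions (1.44 to 3.07%) on chromosome 11 and to 1.95% (1.73 to 2.18%) elsewhere, and the intervals overlapped. The highest score of chromosome 11, 91, was below the maximum of 11 other autosomes. Density ratios by minimum score were 1.78 (1.67 to 1.89) from 13 up, 1.80 (1.67 to 1.95) from 17 up, 1.95 (1.74 to 2.17) from 23 up and 1.94 (1.28 to 2.85) from 50 up. Each of these sets contains the next, and all 4 intervals overlap.

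The highest score of chromosome 11 was at chr11:4110182-4120789, 91 over 10607 bp, in a window with 14 regions. It was followed by chr11:102267266-102272102 with 87 over 4836 bp, in a dense window of 29 regions. Near the proximal end, chr11:6311339-6317448 scored 80 and chr11:6190556-6193546 scored 68, in 1 window that held 11 regions. The region chr11:75618548-75629315 scored 79 over 10767 bp, in a window of 36. Scores of 77, 75, 74 and 72 belonged to chr11:94408241-94411894, chr11:88577828-88581280, chr11:97519898-97525940 and chr11:118108592-118111703, all in dense windows. The tenth, chr11:62732835-62736357, scored 61. In the whole list these 10 ranked from 17 to 122 by score. Of the 29 regions with a score of 50 or more, 21 lay in dense windows, which is 72.4% (52.8 to 87.3%). Of all regions of chromosome 11, 57.4% did, a share inside that interval. A neighbour within 10 kb was found for 13 of the 29, 44.8%, against 48.96% of all. None within 100 kb was found for 2 of the 29, and for 6.36% of all. The lowest score, 8, was given to 2 regions, chr11:51431341-51433976 and chr11:53376382-53377493.

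Regions of chromosome 11 were closely spaced. Adjacent regions were a median of 23634 bp apart, edge to edge, with quartiles of 6855 and 72508 bp. On the other autosomes the median was 33462 bp, and chromosome 7 came nearest with 24923 bp. Each of the 3 quartiles was the smallest of the 19 autosomes. Distances over 100 kb made up 17.2% (15.2 to 19.3%) of those on chromosome 11 and 26.4% (25.7 to 27.1%) elsewhere. Distances under 1 kb differed less, with 7.77% (6.40 to 9.33%) and 6.99% (6.58 to 7.41%).

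**Figure D5:**
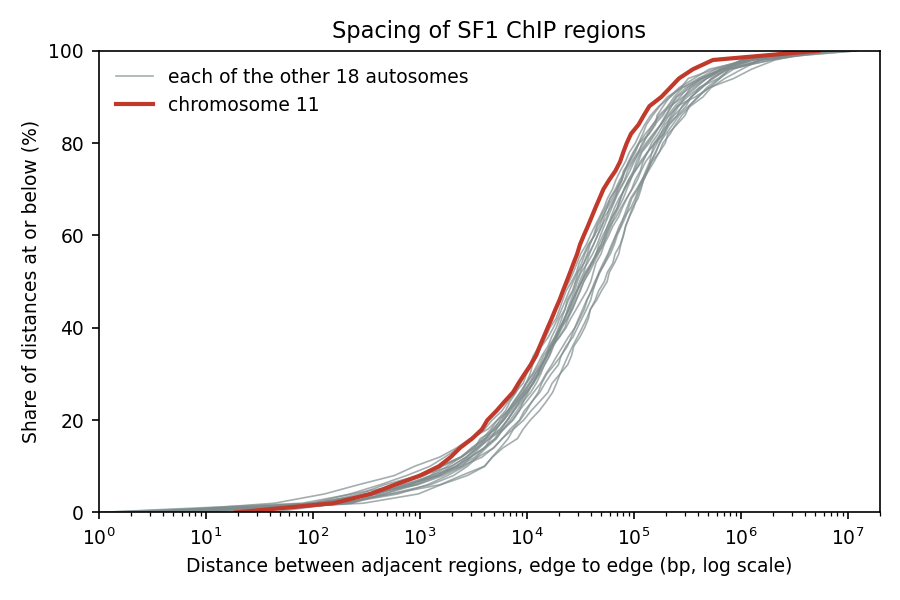
Cumulative share of distances between adjacent regions (vertical axis, percent) by distance in bp on a log scale (horizontal axis), for chromosome 11 (red) and each of the other 18 autosomes (grey). The red curve crosses 50% at 23634 bp, left of every grey curve, and runs among them below 1 kb.

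A neighbour within 10 kb was found for 662 regions of chromosome 11, 48.96% (46.3 to 51.7%), and for 42.7% (41.9 to 43.5%) elsewhere. Chromosome 7 had more, 49.7%. With the list cut to the 10% with the highest scores, and neighbours looked for among those alone, the order turned. A neighbour within 10 kb then stood beside 10 of 150 regions on chromosome 11, 6.67% (3.24 to 11.9%), and beside 8.92% (7.51 to 10.5%) elsewhere, though these intervals overlapped. Regions with a near neighbour had a median width of 2596 bp (2512 to 2758) on chromosome 11 and 2383 bp (2343 to 2424) elsewhere. Among single autosomes chromosome 8 was close, at 2584 bp. Regions without a near neighbour had medians of 2025 bp on chromosome 11 and 1927 bp elsewhere. No neighbour within 100 kb was found for 86 regions, 6.36% (5.12 to 7.80%), the lowest share of any autosome, and for 11.4% (10.9 to 11.9%) elsewhere. Chromosome 7 came nearest at 7.48%, inside the interval of chromosome 11. Those 86 regions of chromosome 11 had a median width of 1663 bp and a median score of 16.

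Regions joined by distances under 10 kb formed 242 groups of 2 or more on chromosome 11, and 148 of these were pairs. Groups of 5 or more numbered 19 and held 116 regions, 8.58% (7.14 to 10.2%), against 5.83% (5.45 to 6.22%) elsewhere. Chromosome 8 also had 19 such groups, with 11.8% of its regions. On chromosome 11, 15 of the 19 groups began in a dense window, and 57.4% of all its regions lay in dense windows. The largest, chr11:59693594-59779471, held 12 regions over 85877 bp with scores from 12 to 39. Groups of 8 stood at chr11:69467156-69534123, with scores up to 57, and at chr11:68872254-68949114, with scores up to 39 and a median width of 4808 bp. Groups of 7 stood at chr11:118179773-118241568, where regions covered 69.1% of 61795 bp, and at chr11:117169045-117232701, where they covered 52.7%. A region scoring 50 or more was part of 2 of the 19 groups. Merging regions less than 1 kb apart left 8 groups of 5 or more on chromosome 11 and 68 on the other autosomes. A limit of 5 kb in place of 10 kb left 7 and 50.

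Long stretches without a region were few. Distances over 1 Mb numbered 12 on chromosome 11, the lowest number of any autosome, and took up 25.9% of its span, against 43.3% on the other autosomes together and at least 30.1% on each. The longest ran from 23795714 to 29146387 (5.35 Mb). It was followed by 11867032 to 16651035 (4.78 Mb), 36337367 to 40505222 (4.17 Mb), 90584670 to 93176586 (2.59 Mb) and 40508468 to 42960459 (2.45 Mb). All but 1 of these 5 lay before 50 Mb. A single region of 3246 bp, with a score of 26, parted the third from the fifth. What share of these stretches can be aligned is not known here. With all stretches over 1 Mb taken out of every span, the density ratio of chromosome 11 fell from 1.76 to 1.35.

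The sequence TCAAGGTCA is a known form of the DNA element that SF1 binds. It was looked for on both strands in the RefSeq promoters of GRCm38.p6, 300 bases each, from 250 before to 50 after a gene's start, and it overlaps the half-site shared by many nuclear receptors. On chromosome 11, 9 of 2289 promoters held it, 0.393% (0.180 to 0.745%). On the other autosomes in that table the share was 0.419% (0.348 to 0.5003%), and over all its promoters 0.423%. Promoters of chromosome 18 were not used here. Chromosome 11 ranked 8 of the 18 autosomes compared, and the others ran from 0.157% to 0.693%. The promoters of chromosome 11 thus held these letters about as often as others, within the counting interval. A match is a run of letters and not a binding site, and the promoters were not set against the regions, which are on another build.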

How the data were processed

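The authors deposited 1 list of regions from the SF1 ChIP library, with no header and 5 columns, the last of which is an unnamed whole number taken here as the score. Reads were single-end, 50 nt per the labels' protocols, and were aligned with BWA to mm9 per the submitters' processing notes. How regions were called, at which threshold and with what use of the input is not stated in the sources used here. The list carries no read totals, and the depth is unknown. Coordinates are printed as deposited and are uncertain by 1 bp at the start.

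Windows, distances, groups and quartiles were computed with Python 3.11.15 (scipy 1.17.1, pandas 2.3.3, numpy 2.4.6), and the code was tested on simulated regions. Shares carry exact Clopper-Pearson 95% intervals and medians binomial order-statistic ones; both treat regions as independent. No p-values were computed, as 1 library offers no replicates. The chromosome, the thresholds and the gene list were chosen with earlier results of these data known. Regions named are the 10 with the highest score, the 5 widest, the 5 largest groups, the 5 longest empty stretches and every dense window. No mm9 sequence was used here, so no region sequence is shown.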

Additional observations from a re-analysis of the deposited data

How the results depend on the processing

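Of 34 alternatives, 19 stayed within the counting interval of the value reported, or within 1.5 times a count, and 15 moved. For dense windows, empty windows, neighbours and groups, the value of chromosome 11 was compared with its own main value alone. A changed threshold can move such a value without a change in the contrast with the other autosomes. Of the 34, 4 were chosen after seeing the data. These were windows filled by the start of a region, and gene sets without receptor families or without Gm-numbered symbols. The ratios of region density (over all windows and outside dense ones) and of regions per gene stayed above 1 in every alternative run for them. The density ratio was 1.95 in the top 10% by score, 1.99 by covered length and 1.35 with stretches over 1 Mb without a region taken out. Dense windows numbered 8 at 30 or more regions, 6.72% of windows, against 36 on the other autosomes, 1.57%. In the top 50% by score, with the minimum of 20 kept, they numbered 6 of 119 windows on chromosome 11. The other autosomes then had 20 of 2287. The density ratio outside dense windows was 1.60 when dense meant 30 or more. The share of regions with a neighbour within 10 kb was 48.96% on chromosome 11 against 42.7% on the other autosomes. It was 34.8% against 27.5% in the top 50%, and 42.0% against 35.2% with regions under 1 kb apart merged. For 5 kb it was 36.5% against 29.2%, and for 25 kb 72.3% against 62.8%. In the top 10% it was 6.67%, below the 8.92% of the other autosomes, the reverse of the whole list. The 2 intervals in the top 10% overlapped. Groups of 5 or more, 19 on chromosome 11 and 145 on the other autosomes, numbered 7 and 50 with distances under 5 kb. After merging they numbered 8 and 68. The difference in median width was 65 bp outside dense windows. Regions per protein-coding gene gave a ratio of 1.09, and per gene of any type 1.31. No paired analysis was possible because there is 1 ChIP library without a replicate, and for that reason none could be left out. What sequencing depth limits is unknown.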
